A study of Mus musculus with 4 samples.

Results

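Conventional CD4 T cells of mouse lung tumours are the helper T cells that carry CD4 but not the regulatory factor Foxp3, and this account covers 582 such cells from the 2 libraries made before immune cells were removed. A cell was taken as a member if it held at least 1 UMI (unique molecular identifier, 1 captured RNA molecule) of the CD3 genes Cd3d, Cd3e or Cd3g, at least 1 Cd4 UMI, none of Foxp3, Cd8a, Cd8b1, Cd79a, Epcam or C1qa, and at most 1 UMI of Trdc and Cd163l1 together. Cells had to have at least 200 detected genes and at most 20% mitochondrial UMIs. The library labelled vehicle gave 370 members of 7304 kept cells and the library labelled tamoxifen 212 of 6227, out of 28085 kept cells in all 4 libraries of the series.

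The mice carried the alleles KrasFSF-G12D, p53frt, Rosa-FSF-CreERT2 and Hnf4aflox in both groups, so the controls held the floxed Hnf4a allele and the CreERT2 allele as well. An adenovirus expressing FlpO recombinase from the mouse surfactant protein C promoter, which is active in alveolar type II cells, started the tumours. Animals were treated 10 weeks after infection, either with tamoxifen, which activates CreERT2, or with vehicle alone. Macroscopic tumours were dissected singly 2 weeks later. The labels call the control treatment ethanol and the treatment protocol calls it corn oil. Neither the age of the mice nor the number of mice or tumours behind a suspension is stated. The cells were frozen, thawed and sorted as live cells, and each condition is 1 library, so no test across replicates was possible and every interval below covers counting error only. Hnf4a, the gene that tamoxifen should delete in tumour cells, stood at 52.3 CPM (UMIs of a gene scaled to a fixed total of the summed UMIs) in Epcam-positive cells of the vehicle-labelled library and at 82.8 CPM in those of the tamoxifen-labelled library. This goes against the label, and which part of the transcript the counted reads cover relative to the deleted exons is not given. Comparisons of treatment below are therefore comparisons of 2 labelled libraries. The members held 0 UMIs of Hnf4a and of the Cre, flpO, GFP and Tdtomato features.

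CD4 T cells read peptides held by MHC class II molecules through an alpha-beta T cell receptor and act on other cells mainly through cytokines and surface ligands such as CD40L. Naive and central memory cells travel between blood and lymph nodes by means of receptors that include CCR7 and S1PR1, and the transcription factor KLF2 keeps S1pr1 active. Cells that settle in lung lose these receptors and carry others, such as CXCR6 and the integrin CD103 (Itgae).

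The labelled cell type was checked against its markers. Trbc2, a constant region of the T cell receptor beta chain that the rule did not use, stood at 1215 CPM (Poisson interval 1173 to 1259) in the vehicle-labelled members and at 1360 CPM (1302 to 1420) in the tamoxifen-labelled members. After each cell was thinned to 2000 UMIs, 78.6% and 85.4% of members held a Trbc2 UMI, against 0.266% and 1.79% of B cells and 1.06% and 1.10% of epithelial cells. The unthinned shares in members were 93.2% and 95.8%. B cells here held Cd79a and Cd79b UMIs and none of the CD3 genes or Epcam, and epithelial cells held Epcam and none of Ptprc or the CD3 genes. Before thinning, B cells had medians of 5028 and 4902.5 UMIs, epithelial cells of 23820 and 26267, and members of 5727 and 6359 among the cells deep enough to thin. Icos, an inducible costimulatory receptor, stood at 659 CPM (627 to 691) and 529 CPM (493 to 567), and 58.1% and 50% of thinned members held a UMI (73.5% and 72.2% unthinned), against 0.532% and 0.595% of B cells. Trac, the alpha chain constant region, was present in 57.0% and 65.5% of thinned members. Cd3e, which the rule used, stood at 260 and 297 CPM, and Cd4, also used, at 324 and 295 CPM. The markers of the label were thus read in both libraries.

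Of the members, 345 and 203 held a Trbc2 UMI, 216 and 126 a Trbc1 UMI, and 11 and 4 held neither beta constant region. Both constant regions were read in 202 vehicle-labelled and 121 tamoxifen-labelled members, although a T cell uses 1 of them in its working chain, and the counting of these near-identical genes is uncertain. A variable segment of the beta chain was read in 37 and 25 members, among them 11 and 10 with Trbv19 and 10 and 11 with Trbv2. Alpha variable segments were read in 43 and 36 members, spread over 30 and 26 different segment genes. The receptor repertoire was therefore seen in few cells of this 3′ assay. Xist had 0 UMIs in the members, whereas the Y-linked Ddx3y stood at 122 and 120 CPM.

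Members made up 5.07% of the kept cells in the vehicle-labelled library (Clopper-Pearson interval 4.57 to 5.59) and 3.40% (2.97 to 3.89) in the tamoxifen-labelled library. The 2 libraries held 104147479 and 92644997 UMIs. Members had a median of 5685.5 and 6307 UMIs and 2217 and 2257 genes per cell, against medians of 10032.5 and 10317 UMIs in all other kept cells. The libraries made after depletion of CD45-positive and CD31-positive cells held 0 members of 7043 and 7511 kept cells, which allows shares of up to 0.0426% and 0.0399%. In those libraries 1 and 0 cells held any CD3 UMI, while 334 and 220 Cd4 UMIs were still read. Each pair of libraries shared 10 to 18 cell barcodes, and 1 member's barcode was among them: a tamoxifen-labelled member shared its barcode with the tamoxifen-labelled library made after depletion.

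The rule cut close to many cells. In 163 vehicle-labelled (44.1%) and 103 tamoxifen-labelled members (48.6%) the call rested on a single Cd4 UMI, and 6 and 5 members held a single CD3 UMI. Just outside, 289 and 163 cells with CD3 UMIs held neither Cd4 nor Cd8 UMIs and 25 and 12 held both, while 3 and 2 cells that met every other condition had 2 or more UMIs of Trdc and Cd163l1. The neighbouring regulatory T cells, defined by at least 1 Foxp3 UMI, numbered 75 and 27, and 15 and 9 of them were set apart by 1 Foxp3 UMI. Ikzf2 (Helios), a factor typical of regulatory T cells, was present in 97 and 65 members, and 29 and 9 of these also held Il2ra UMIs. In the vehicle-labelled library that was 29.9%, against 12.1% of the members without Ikzf2. In the tamoxifen-labelled library it was 13.8%, against 16.3% of the members without Ikzf2. How many members are regulatory T cells whose Foxp3 was not captured was not measured.

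Genes of other cell types were read in the members as well. Sftpc, the surfactant gene of alveolar cells, had a UMI in 49.9% and 59.2% of thinned members (88.9% and 92.5% unthinned) and in 52.7% and 53.6% of thinned B cells, a like share in 2 cell types that do not express it. Of the 10 epithelial markers, 0 were at 0 in the members, and their sum was 885 CPM in the vehicle-labelled and 570 CPM in the tamoxifen-labelled members, with 37.9% of the former in 1 cell. The neutrophil list summed to 556 and 70.0 CPM, and 1 vehicle-labelled member held 74.6% of its UMIs. The dendritic cell list summed to 784 and 291 CPM, with 25.8% of the former in 1 cell, and the macrophage list to 1014 and 1267 CPM. The endothelial list summed to 288 and 124 CPM, and its defining genes Cdh5, Cldn5 and Kdr were at 0 in the tamoxifen-labelled members. The B cell genes Ms4a1 and Pax5 were at 0 in both libraries, as was the gamma-delta receptor gene Trdv4. The natural killer T and innate-like list summed to 230 and 178 CPM, with Fcer1g alone at 93.3 and 79.9 CPM. The invariant chain gene Trav11 on that list had a UMI in 1 and 0 members. A doublet score above 0.25 was found for 13 and 3 members, which were kept. In all, 55 (14.9%) and 28 (13.2%) of the members held 3 or more UMIs over 19 defining genes of other cell types.

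Within the members, cells with recirculation receptors were compared with cells without them. Ccr7, the receptor that guides lymphocytes into lymph nodes, had a UMI in 20% and 24.8% of thinned members, and S1pr1, the receptor that lets lymphocytes leave tissue along a lipid gradient, in 35.3% and 24.8%. At least 1 of these receptors was read in 44.4% of the vehicle-labelled members (39.2 to 49.6) and in 38.3% of the tamoxifen-labelled members (31.7 to 45.4). The unthinned shares were 63.5% and 59.9%. Among CD8 T cells of the same libraries the thinned share was 30.2% and 20.1%, among regulatory T cells 26.7% and 29.6%, among B cells 62.0% and 53.6%, and among epithelial cells 0.945% and 0.884%.

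Members with a receptor UMI carried higher levels of several transcription factors of naive and central memory T cells in both libraries. Members without one carried higher levels of the effector genes Nkg7 and Ifng in both libraries, and of Cxcr6 and S100a4 from the tissue residency list. The other 7 genes considered on that list were not called. A gene was called when it differed at least 2-fold on log2(CPM + 1) in the same direction in both libraries and reached 50 CPM in either of the 2 sums compared in each library. Of 3377 genes considered, 22 (0.651%) were called higher and 58 (1.72%) lower in members with receptor UMIs, and 2 passed the fold in opposite directions in the 2 libraries. These were Clic4, named after its values were seen, with log2 differences of 1.23 and -1.01, and the macrophage gene Ear2, with 1.18 and -2.05. The receptors that defined the division were not counted. Cxcr6 and Ifng lay under 50 CPM in the group with receptor UMIs in both libraries, and Dapl1 and Rflnb in the group without. Each of these genes could be called in the direction seen only. The group with receptor UMIs held 162 and 79 cells and the group without them 203 and 127, with medians of 5533.5 and 6532 UMIs against 5998 and 6179. In the group without, 71 and 46 cells held a receptor UMI before thinning, so the groups are not fully separate, and 5 and 6 members below 2000 UMIs were left out. Dividing the members after thinning to 4000 UMIs gave 52 genes higher in place of 22.

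Of 11 naive and memory regulators considered, 7 were called higher and 0 lower, with a median log2 difference of 1.56 in the vehicle-labelled and 1.41 in the tamoxifen-labelled library, against -0.09 and -0.08 over all genes considered. Klf2 stood at 708 CPM with and 258 CPM without receptor UMIs in the vehicle-labelled library (log2 difference 1.45, interval 1.28 to 1.64). In the tamoxifen-labelled library it stood at 767 against 287 CPM (1.42, 1.20 to 1.65). Lef1, a partner of beta-catenin that shapes T cell identity in the thymus and in naive cells, stood at 1061 against 358 CPM (1.56) and at 914 against 344 CPM (1.41). Satb1, a chromatin organiser of T cells, stood at 1532 against 483 CPM (1.67) and at 1172 against 419.8 CPM (1.48). Bach2, a repressor that holds T cells in a resting state, stood at 1228 against 387 CPM (1.66) and at 707 against 334 CPM (1.08). Igfbp4, a binding protein for insulin-like growth factors, stood at 233 against 49.9 CPM and 267 against 84.4 CPM, Dapl1 at 101 against 31.0 CPM and 148 against 27.0 CPM, and Rflnb at 125 against 27.7 CPM and 80.9 against 15.1 CPM. These 7 genes were higher in the group with receptor UMIs in both libraries. The list's other genes did not pass the fold in both libraries. Among them, Tcf7, the relative of Lef1, stood at 507 against 276 CPM and 384 against 201 CPM, with log2 differences of 0.87 and 0.93. Foxp1 stood at 1068 against 467 CPM (1.19) and 640.1 against 386 CPM (0.73), and the interleukin-7 receptor Il7r and the factor Ets1 had log2 differences from 0.21 to 0.45. Among genes ranked by their difference, Patj, a cell polarity protein, stood at 124 against 35.8 CPM and 92.9 against 24.9 CPM, and Cd55, which protects cells from complement, at 112 against 27.0 CPM and 96.4 against 29.2 CPM. St8sia6 and Pik3ip1, which restrains phosphoinositide 3-kinase signalling, completed the 10 genes ranked highest, with log2 differences from 1.42 to 1.85.

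Of 9 genes considered on the tissue residency list, 2 were called lower in members with receptor UMIs (Cxcr6 and S100a4) and 0 higher, with medians of -0.99 and -1.02. Cxcr6, the receptor for the chemokine CXCL16 made by lung and myeloid cells, stood at 44.1 CPM with and 280.1 CPM without receptor UMIs in the vehicle-labelled library (log2 difference -2.64, -3.14 to -2.22). In the tamoxifen-labelled library it stood at 24.1 against 245 CPM (-3.29, -4.24 to -2.57). As thinned shares, 6.17% against 28.6% of the vehicle-labelled and 2.53% against 32.3% of the tamoxifen-labelled members held Cxcr6. S100a4 stood at 253 against 785 CPM (-1.63) and at 251 against 914 CPM (-1.86). Rgs1, which damps chemokine receptor signals, was past the fold in the tamoxifen-labelled library alone, at 233 against 464 CPM (-0.99) and 182 against 604 CPM (-1.72). Prdm1 (Blimp-1) stood at 27.8 against 55.3 CPM and 6.88 against 51.9 CPM, the latter from 4 and 48 UMIs, and was likewise past it in the tamoxifen-labelled library alone. Itgae, which binds E-cadherin on epithelium, stood at 21.1 against 103 CPM and, below the level considered, at 8.60 against 48.7 CPM. In unthinned members, 40 of 56 cells with Itgae also held Cxcr6 in the vehicle-labelled library and 13 of 18 in the tamoxifen-labelled library. Ccr7 and Cxcr6 were read together in 17 of 132 and 7 of 76 unthinned members with Ccr7, whereas 43.3% and 51.5% of the members without Ccr7 held Cxcr6.

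Several effector genes lay on the same side as Cxcr6. Nkg7, a granule protein of cytotoxic and type 1 cells, stood at 46.1 against 368 CPM (-2.97, -3.45 to -2.57) and at 79.2 against 552 CPM (-2.79, -3.27 to -2.36). Ifng stood at 14.4 against 116 CPM and 29.3 against 74.7 CPM, and 2 of 8 type 1 helper genes considered were called lower (Ifng and Nkg7), with 0 higher. Ccl5, a chemokine of effector and memory T cells, stood at 487 against 482 CPM, with 61.2% of the former in 1 cell, and at 199.6 against 1539.6 CPM. Of 4 type 17 genes considered, 3 were called lower (Rora, Tmem176a and Tmem176b), and of 6 inhibitory genes 2 (Entpd1 and Nt5e, which break down extracellular nucleotides). PD-1 (Pdcd1), at 43.2 against 137 CPM (-1.64) and 55.1 against 99.5 CPM (-0.84), was past the fold in the vehicle-labelled library alone. Among 4 cytotoxic genes, Ctsw, Ccl4 and Ccl3 were called lower, although 1 cell held 44.8% of the Ccl3 UMIs of the vehicle-labelled cells without receptor UMIs and 1 cell 47.3% of the Ccl4 UMIs of the tamoxifen-labelled ones. Of 15 activation genes, 0 were higher and Il2ra and Nr4a2 lower. Il2ra, at 50.9 against 171 CPM in the vehicle-labelled library, had 49.1% and 47.6% of its UMIs in 1 cell of each group. Cd44, the adhesion receptor of antigen-experienced cells, stood at 197 against 485 CPM (-1.30) and 157 against 299 CPM (-0.93). Socs2 was the 1 gene called, as lower, among 6 regulatory T cell genes. Of 15 T cell identity genes, 0 passed the fold in both libraries in either direction, with medians of -0.28 and -0.28. Among the genes ranked lowest, Rgs16, which like Rgs1 damps G protein signals, stood at 16.3 against 104 CPM and 8.60 against 74.7 CPM, with 37.0% of the vehicle-labelled UMIs without receptors in 1 cell. The ubiquitin ligase subunit Asb2 stood at 11.5 against 63.4 CPM and 10.3 against 69.2 CPM, and Krt83, Fgl2, Ern1, Cpd, Ier5l and Gng2 had log2 differences from -3.87 to -1.63.

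Some marker lists of other cells differed along with the division. In the vehicle-labelled library the neutrophil list summed to 157 CPM with and 837 CPM without receptor UMIs, with 84.6% of the latter in 1 cell, whereas in the tamoxifen-labelled library the sums were 86.0 and 57.3 CPM. The dendritic list summed to 397 against 1057 CPM, with 32.7% of the latter in 1 cell, and to 232 against 326 CPM. The epithelial list summed to 1413 against 510.2 CPM in the vehicle-labelled library, with 57.6% of the former in 1 cell, and to 509 against 602 CPM in the tamoxifen-labelled library. The endothelial list summed to 450.0 against 175 CPM and 158 against 102 CPM. On that list 1 of 6 genes reached the level considered, and Cdh5, Cldn5 and Kdr had no UMI in the tamoxifen-labelled members. Pecam1, also listed, was called higher in members than in CD8 T cells, with log2 differences of 1.96 and 1.06. H2-Ab1 was called lower, at 79.6 against 188 CPM and 20.6 against 68.2 CPM. The part of these cells in the division was not tested.

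**Figure D1:**
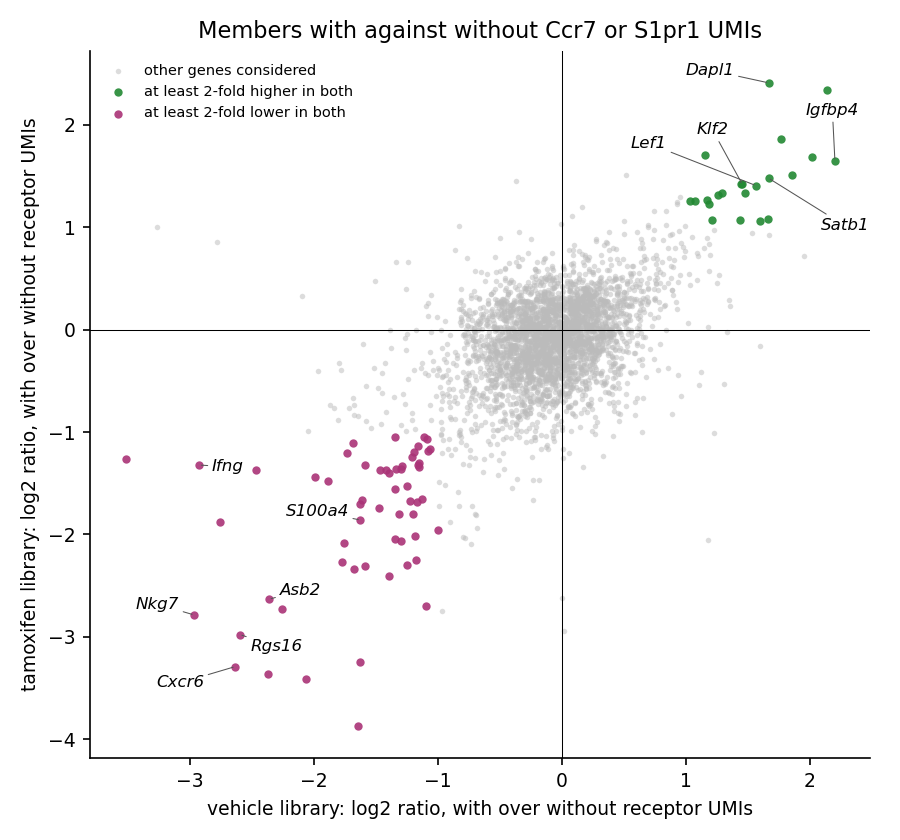
Log2 difference between members with and without a UMI of Ccr7 or S1pr1 in the library labelled vehicle (horizontal axis) and in the library labelled tamoxifen (vertical axis), 1 point per gene considered, with the genes past 2-fold in both libraries coloured. Klf2, Lef1 and Satb1 lie at the upper right, Cxcr6 and Nkg7 at the lower left, and 2 genes passed the fold in opposite directions.

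Promoter sequences of 2 genes from each side of the division are shown so that the letters around their start sites can be read beside these levels. They come from RefSeq and run from 250 bases before to 50 after the start, 5′ to 3′ on the gene's strand. Capitals mark the Krüppel-like factor core CCACCC, the TCF/LEF core CTTTGA or CTTTGT, and the MEF2-type word CTANNNNTAG, searched on both strands, so that GGGTGG and ACAAAG are cores on the opposite strand. Lef1 has 4 starts in the table, and the first is shown.
Klf2 promoter, GRCm38.p6, chr8:72318812-72319111, + strand: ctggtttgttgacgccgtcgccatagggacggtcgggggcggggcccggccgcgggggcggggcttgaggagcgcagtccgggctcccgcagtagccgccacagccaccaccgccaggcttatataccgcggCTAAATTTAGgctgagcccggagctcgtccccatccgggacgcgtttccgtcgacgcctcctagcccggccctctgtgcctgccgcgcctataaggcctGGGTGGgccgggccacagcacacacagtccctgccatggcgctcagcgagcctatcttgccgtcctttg
Lef1 promoter, GRCm38.p6, chr3:131110047-131110346, + strand: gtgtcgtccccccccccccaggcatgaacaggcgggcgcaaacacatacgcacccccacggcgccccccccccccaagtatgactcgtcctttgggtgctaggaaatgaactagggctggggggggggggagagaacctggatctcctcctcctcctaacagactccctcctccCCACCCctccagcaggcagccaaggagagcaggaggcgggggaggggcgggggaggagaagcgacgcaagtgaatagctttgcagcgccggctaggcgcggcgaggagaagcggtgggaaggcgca
Cxcr6 promoter, GRCm38.p6, chr9:123806227-123806526, + strand: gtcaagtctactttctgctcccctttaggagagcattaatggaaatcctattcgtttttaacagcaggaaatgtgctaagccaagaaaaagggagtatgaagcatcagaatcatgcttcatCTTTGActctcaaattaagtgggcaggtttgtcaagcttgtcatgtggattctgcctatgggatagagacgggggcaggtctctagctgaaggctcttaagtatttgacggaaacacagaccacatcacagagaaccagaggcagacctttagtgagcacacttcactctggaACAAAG
Nkg7 promoter, GRCm38.p6, chr7:43436888-43437187, + strand: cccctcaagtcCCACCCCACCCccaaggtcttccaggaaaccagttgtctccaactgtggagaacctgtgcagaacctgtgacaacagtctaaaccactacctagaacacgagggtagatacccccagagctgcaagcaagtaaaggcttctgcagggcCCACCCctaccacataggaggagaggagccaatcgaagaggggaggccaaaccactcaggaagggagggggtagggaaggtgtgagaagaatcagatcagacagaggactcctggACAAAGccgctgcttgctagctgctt

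The Klf2 window holds the MEF2-type word from -118 to -109 relative to the start and 1 Krüppel-like core from -19 to -14. The Lef1 window holds 1 Krüppel-like core from -76 to -71, and Nkg7 holds 3, of which 2 overlap at their ends. TCF/LEF cores lie in the Cxcr6 window from -129 to -124 and from 44 to 49, and in Nkg7 from 24 to 29. Such words are common. The Krüppel-like core is in 31.5% of the 32851 promoters of the table, the TCF/LEF core in 31.2% and the MEF2-type word in 3.69%. These shares are per promoter, whereas the counts that follow are per gene, with a word in any of its promoters. The 2 are therefore not directly comparable. The 10 genes ranked highest in members with receptor UMIs were all in the table, with 19 promoters. Of these genes, 6 held the Krüppel-like core, 3 the TCF/LEF core and 1, Klf2, the MEF2-type word. Among the 10 ranked lowest, 9 were in the table, with 10 promoters, and 6, 3 and 0 of these genes held these words. A match describes the letters and not a bound site.

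Helper programmes were read next, from lineage factors and cytokines. Helper cells are grouped by what they secrete: type 1 cells make interferon gamma under T-bet (Tbx21), type 2 cells make interleukin-4 under GATA3, type 17 cells make interleukin-17, and follicular helper cells use BCL6 and CXCR5 to enter B cell follicles. Most members held no UMI of a lineage cytokine. At least 1 UMI of Ifng, Il17a, Il4 or Il21 was found in 85 of 370 vehicle-labelled and 59 of 212 tamoxifen-labelled members, and 8 and 4 of these cells held more than 1 of the cytokines.

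Of these 4 cytokines Ifng was found in the largest number of members, in 56 and 41 unthinned members. The thinned shares were 7.95% (5.39 to 11.2) and 10.7% (6.81 to 15.7), against 0.532% and 0% of B cells. Among members with receptor UMIs the thinned shares were 1.85% and 3.80%, and among those without 12.8% and 15.0%. Tbx21 was found in 8.77% and 5.34% of thinned members, against 2.13% and 1.19% of B cells, and 20 of the 56 and 7 of the 41 members with Ifng also held it. That was 35.7% and 17.1%, against 14.6% and 11.1% of the unthinned members without Ifng. Ccl5 was found in 11% and 17%, and Nkg7 in 15.9% and 19.9%. Of 56 and 49 members with Ccl5, 35 and 33 held Nkg7, and 16 and 22 held Ifng. Nkg7 was held by 16.2% and 16.6% of the members without Ccl5. These genes were thus read together in part of the unthinned members, whose depth was not matched.

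Gata3, which conventional and regulatory T cells both carry, was found in 15.6% and 18% of thinned members and in 0.266% and 0% of B cells. Il4 was found in 1.92% and 4.85% of thinned members, with interval bounds of 0.774 to 3.91 and 2.35 to 8.75, and in 0% of B cells, epithelial cells, CD8 T cells and regulatory T cells of both libraries. For 75 and 27 regulatory T cells, 0% allows shares of up to 4% and 11.1%, above those of the members. For CD8 T cells it allows up to 1.49% and 1.95%. Of 18 and 13 unthinned members with Il4, 11 and 10 also held Gata3, against 32.7% and 37.7% of members without Il4. Il4 stood at 18.2 and 33.7 CPM, and 37.0% of the vehicle-labelled UMIs came from 1 cell. Il17a was found in 11 and 4 members, at 41.1 and 24.4 CPM, with 38.5% and 67.6% of its UMIs in 1 cell. Ifng and Il17a were read together in 6 and 1 members, Ifng and Il4 in 0 and 1, and Il17a and Il4 in 0 and 0.

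The follicular helper factors were read in few thinned members. Bcl6 was found in 7.67% and 7.28% (23.5% and 16.5% unthinned), against 7.43% and 5.84% of CD8 T cells and 9.45% and 6.85% of epithelial cells. Cxcr5 was found in 2.19% (0.951 to 4.27) and 2.43% (0.793 to 5.57), against 0.118% and 0.221% of epithelial cells, 0.495% and 0.649% of CD8 T cells, and 33.8% and 37.5% of B cells, which carry it themselves. Il21 was found in 1.10% and 0.485%, and in 0% of B cells, CD8 T cells and epithelial cells of both libraries. That 0% allows shares of up to 1.49% and 1.95% in CD8 T cells and 0.798% and 1.79% in B cells. Il10, an inhibitory cytokine, was found in 2.74% and 2.43%, and 15 of 19 and 9 of 9 unthinned members with Il10 held Maf, a factor that drives its transcription, against 42.2% and 44.8% of members without Il10. Mki67, a gene of dividing cells, was found in 6.03% and 5.83% of thinned members, against 3.66% and 2.21% of epithelial cells.

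Surface ligands through which helper T cells act were read as well. Tnfsf8 (CD30L), a ligand of the TNF family, was found in 33.2% and 34.0% of thinned members and stood at 414 and 419 CPM. Cd40lg, which activates B cells and dendritic cells through CD40, was found in 11.2% (8.18 to 14.9) and 17.5% (12.5 to 23.4) and stood at 73.5 and 116 CPM. It was in 0% of B cells and of epithelial cells in both libraries.

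**Figure D2:**
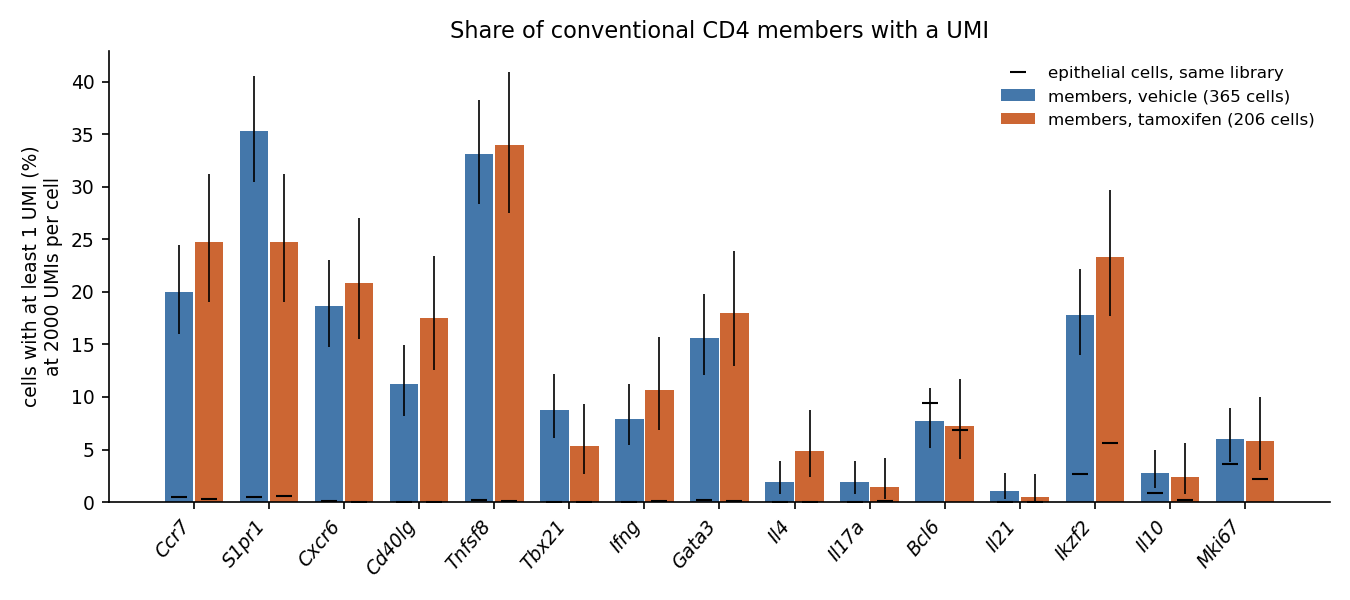
Percent of members with at least 1 UMI of each named gene after thinning to 2000 UMIs, for the library labelled vehicle and the library labelled tamoxifen, with exact 95% intervals as thin lines and the share in epithelial cells of the same library as a short dash. Tnfsf8 at 33.2% and 34.0% lies above the lineage cytokines, of which Ifng is at 7.95% and 10.7% and Il17a at 1.92% and 1.46%.

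Members were then compared with CD8 T cells of the same suspensions, gated with the same rule but with Cd8a or Cd8b1 UMIs and no Cd4 UMI (205 and 156 cells). Members carried more of the ligands Cd40lg and Tnfsf8 and of the TNF receptors Tnfrsf4 and Tnfrsf18, and less of 3 of 5 cytotoxic, 2 of 4 natural killer T and innate-like and 4 of 10 residency genes considered. Of 3498 genes considered, 53 (1.52%) were called higher and 63 (1.8%) lower in members, and 6 passed the fold in opposite directions in the 2 libraries. The genes that defined the gates were left out. Cd40lg, Tnfsf8 and Tnfrsf4, unlike Tnfrsf18, lay under 50 CPM in CD8 T cells of both libraries. They were considered through the members alone, so that a higher call was the only one open to them. The median over all genes was -0.02 in the vehicle-labelled and 0.00 in the tamoxifen-labelled library.

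Cd40lg stood at 73.5 CPM in members and 2.68 CPM in CD8 T cells of the vehicle-labelled library (log2 difference 4.34, 3.40 to 6.67) and at 116 and 3.81 CPM in the tamoxifen-labelled library (4.60, 3.54 to 6.81). Tnfsf8 stood at 414 against 32.8 CPM (3.62, 3.24 to 4.10) and at 419 against 43.8 CPM (3.23, 2.82 to 3.72). The costimulatory receptor OX40 (Tnfrsf4) stood at 286 against 34.2 CPM and at 306 against 36.2 CPM, and GITR (Tnfrsf18) at 243 against 93.1 CPM and 319 against 93.4 CPM. The transcription factor Maf stood at 227 against 25.5 CPM and at 254 against 21.9 CPM. Gata3 stood at 98.4 against 37.5 CPM and at 128 against 46.7 CPM. Izumo1r, the folate receptor family member FR4 of helper and regulatory T cells, stood at 62.8 against 11.4 CPM and 67.4 against 11.4 CPM. Maf, Gata3 and Izumo1r were likewise under 50 CPM in CD8 T cells of both libraries and could be called higher only. Tbc1d4, which controls glucose transporter traffic, stood at 316 against 74.4 CPM and 276 against 35.3 CPM. Ramp3, Tspan32, Trib2 and Tmem64 completed the 10 genes ranked highest, with log2 differences from 2.13 to 3.29. Cd5, which damps receptor signalling, was the 1 of 15 T cell identity genes called, at 295 against 117 CPM and 268 against 105 CPM.

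In the other direction, Nkg7 stood at 234 CPM in members and 1408 CPM in CD8 T cells (-2.58, -2.72 to -2.45) and at 367 against 1435 CPM (-1.96, -2.11 to -1.83). Ifng stood at 74.7 against 284 CPM (-1.91) and at 58.8 against 333 CPM (-2.48). Of 10 type 1 genes considered, 5 were called lower in members (Tbx21, Ifng, Ccl5, Nkg7 and Ly6c2) and 0 higher. Granzyme B (Gzmb), Ctsw and Ccl4 were lower among 5 cytotoxic genes, with Gzmb at 7.90 against 59.6 CPM and 19.8 against 141 CPM. Itgae stood at 69.1 against 310 CPM (-2.15) and 33.0 against 388 CPM (-3.52), and 4 of 10 residency list genes were lower (Itgae, Itga1, Cxcr6 and S100a6). The chemokine Xcl1, which draws cross-presenting dendritic cells, stood at 24.1 against 241 CPM and 6.60 against 178 CPM. Tcrg-C2, a constant region of the gamma chain, stood at 7.51 against 113 CPM and 4.62 against 263 CPM. The receptors Klrd1 and Klrk1 were lower as well, with Klrd1 at 12.6 against 265 CPM and 7.92 against 193 CPM. Gzmb, Xcl1, Tcrg-C2 and Klrd1 lay under 50 CPM in the members of both libraries. They were thus considered through their level in CD8 T cells alone. Btla was higher and Pdcd1 lower among 7 inhibitory genes. The naive and memory regulators differed less, with Igfbp4 alone called among 10 and medians of 0.66 and 0.79.

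Compared with regulatory T cells (75 and 27 cells), members carried more of 8 of 10 naive and memory regulators and of Cd40lg, Ifng and Fasl, and less of the interleukin-2 receptor alpha chain gene, of the TNF receptors Tnfrsf4 and Tnfrsf9 and of Ikzf2. Of 3573 genes considered, 103 (2.88%) were called higher and 129 (3.61%) lower in members, and 12 passed the fold in opposite directions. Foxp3 defined the gates and was left out. Cd40lg, Ifng and Fasl lay under 50 CPM in regulatory T cells of both libraries. They were considered through the members alone, so that a higher call was the only one open to them. Of the calls, 44.4% were higher on total UMIs, 59.3% on TMM scaling and 58.3% on median-of-ratios scaling. The median of all genes was -0.08 in the vehicle-labelled library on total UMIs and 0.10 on TMM scaling. Regulatory T cells held a median of 7815 and 7191 UMIs per cell, more than the members.

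Of 10 naive and memory regulators considered, 8 were called higher in members and 0 lower, with medians of 2.64 and 2.19. Lef1 stood at 650 CPM in members and 103 CPM in regulatory T cells of the vehicle-labelled library and at 569 and 66.2 CPM in the tamoxifen-labelled library. Tcf7 stood at 371 against 41.9 CPM and at 273 against 69.7 CPM, Klf2 at 443 against 126 CPM and at 475 against 132 CPM, and Bach2 at 737 against 117 CPM and at 479 against 55.7 CPM. Dapl1 stood at 59.7 CPM in members and had 0 UMIs in regulatory T cells of the vehicle-labelled library, so that it was at least 17.1-fold higher against a floor of 3 counts over the group. In the tamoxifen-labelled library it stood at 73.3 CPM against 0 UMIs, at least 7.01-fold higher. S1pr1 was called higher as well, at 228 against 81.4 CPM and 186 against 48.8 CPM. The other recirculation receptor, Ccr7, was not called, with log2 differences of 1.28 in the vehicle-labelled and -0.58 in the tamoxifen-labelled library.

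Cd40lg stood at 73.5 against 6.98 CPM in the vehicle-labelled library (3.22, 2.25 to 4.86), and at 116 CPM against 0 UMIs in the tamoxifen-labelled library, at least 11.1-fold higher. Ifng stood at 74.7 against 1.16 CPM and at 58.8 against 6.97 CPM, the latter from 1 and 2 UMIs in the regulatory T cells, with log2 differences of 5.13 (3.51 to 11.3) and 2.91 (1.18 to 6.14). The death ligand gene Fasl stood at 67.2 against 4.65 CPM and at 62.1 CPM against 0 UMIs, at least 5.94-fold higher. Ms4a4b, a membrane protein of naive and type 1 T cells, stood at 319 against 22.1 CPM and at 258 against 6.97 CPM. Tnfsf8 and Tnfsf11 were called higher among 6 cytokine ligand genes. Tgfbr3, St8sia1, Pde3b and Fgf13 also ranked among the 10 highest, with Pde3b, a cyclic nucleotide phosphodiesterase, at 281 against 32.6 CPM and 251 against 24.4 CPM. Ms4a4b and Pde3b, like Dapl1, were under 50 CPM in regulatory T cells of both libraries and could be called higher only.

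Ikzf2 stood at 231 CPM in members and 2077 CPM in regulatory T cells (-3.16, -3.30 to -3.03) and at 238 against 1397 CPM (-2.55, -2.76 to -2.35). CD25 (Il2ra) stood at 121 against 668 CPM (-2.45) and at 56.1 against 362 CPM (-2.67), with 39.4% of the vehicle-labelled members' UMIs in 1 cell. The costimulatory receptor 4-1BB (Tnfrsf9) stood at 148 against 898 CPM and at 99.7 against 707 CPM, and Ctla4, which takes B7 ligands off other cells, at 626 against 1414 CPM and 478 against 1205 CPM. Of 8 regulatory T cell genes considered, 6 were called lower in members and 0 higher. On this list 6 genes reached 50 CPM in members of either library. Others, Itgb8 among them, were considered through regulatory T cells alone, so that a lower call was the only one open to them. Of the 12 type 2 genes listed, 4 reached the level considered and were called lower (Gata3, Il1rl1, Areg and Cd200r1), with the interleukin-33 receptor Il1rl1 at 32.0 against 470 CPM and 56.1 against 341 CPM. These are genes that tissue regulatory T cells are known to carry, and in the vehicle-labelled members Il1rl1, Areg and Cd200r1 lay under 50 CPM, so that they were considered through their level in regulatory T cells. Il4, under that level in both gates, stood at 18.2 CPM in members against 1 UMI in the vehicle-labelled regulatory T cells and at 33.7 CPM against 0 UMIs in the tamoxifen-labelled ones. Itgb8, which activates TGF-beta, stood at 16.2 against 191 CPM and 9.91 against 62.7 CPM, and Klrg1 at 6.32 against 123 CPM and 1.32 against 83.6 CPM. Dscaml1, Ednrb, Prickle1 and Dscam completed the 10 ranked lowest, with log2 differences from -5.06 to -2.25. Mcm3, Mcm6 and Uhrf1 were lower among 9 genes of DNA replication. On that list 5 genes reached 50 CPM in members of either library, and others were considered through regulatory T cells alone. The part of members with Ikzf2 UMIs in these differences was not tested. Without the leading cell of each gene in each sum, 154 genes were called higher and 78 lower, in place of 103 and 129, and 99 and 78 of these were among the calls given here.

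**Figure D3:**
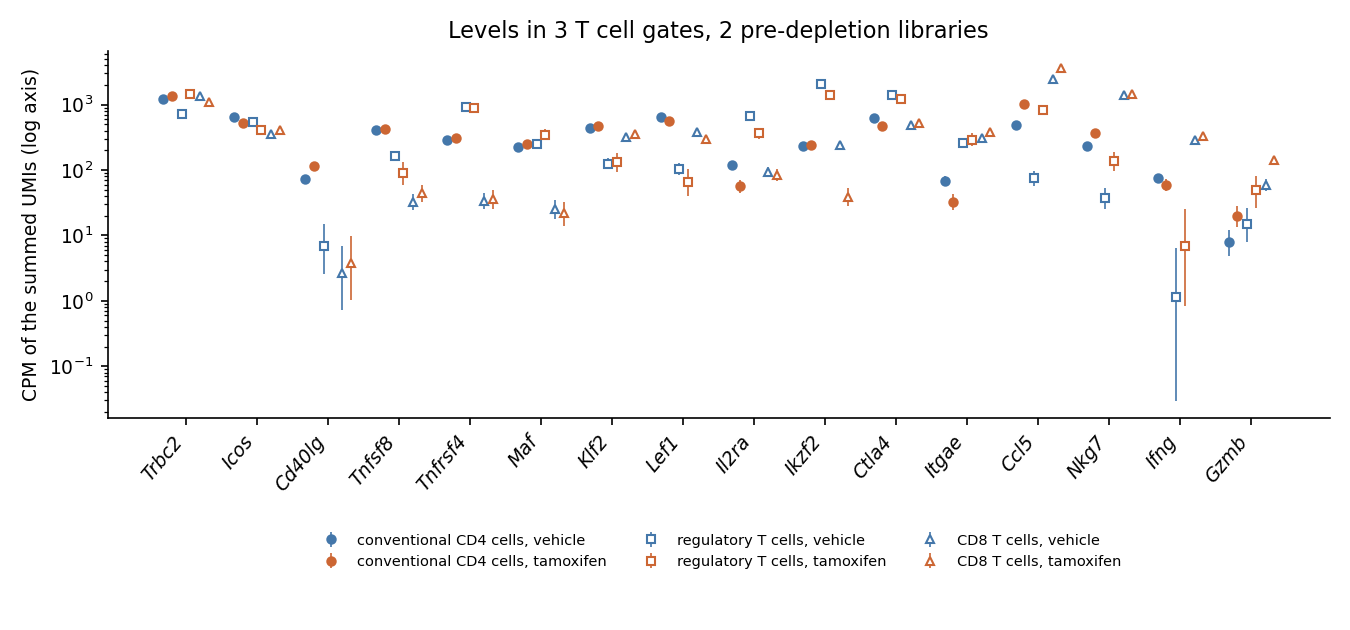
Summed level (CPM, log axis) of selected genes in conventional CD4 members, regulatory T cells and CD8 T cells of the library labelled vehicle and the library labelled tamoxifen, with exact 95% Poisson intervals as bars. Cd40lg and Tnfsf8 are highest in members, Nkg7 in CD8 T cells and Ikzf2 in regulatory T cells in both libraries; Cd40lg in tamoxifen-labelled regulatory T cells had 0 UMIs and has no point.

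The last comparison set the tamoxifen-labelled members beside the vehicle-labelled members, which asks how CD4 T cells differed between tumours given vehicle and tumours given the agent meant to delete Hnf4a. Most lists of T cell genes had 0 members past the fold, while Ccl5, Itgae and several genes shared with other cells passed it. Of 3701 genes considered, 9 (0.243%) were called higher and 46 (1.24%) lower in the tamoxifen-labelled members. The median of all genes was -0.11 on total UMIs and -0.01 on TMM scaling, and 16.4% of the calls were higher on total UMIs, 28.6% on TMM scaling and 29.8% on median-of-ratios scaling. With 1 library a group, these values hold no measure of the spread between mice.

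T cell identity genes had 0 calls of 15 in either direction and a median of 0.01, and naive and memory regulators 0 of 11 and a median of -0.27. Lef1 stood at 650 CPM in the vehicle-labelled and 569 CPM in the tamoxifen-labelled members, Klf2 at 443 and 475 CPM, and Bach2 at 737 and 479 CPM. Of 7 cytokine ligand genes and 6 inhibitory genes, 0 were called, and Ctla4 stood at 626 and 478 CPM. Of 15 activation genes, Il2ra alone was called, at 121 and 56.1 CPM. Its log2 difference was -0.54 in place of -1.10 without the vehicle-labelled cell that held 39.4% of its UMIs and the leading tamoxifen-labelled cell. Of 8 interferon-stimulated genes, 0 were called, with a median of 0.24. Ifi27l2a, the one nearest the fold, stood at 238 and 457 CPM, and Isg15, below the level considered, at 19.8 and 42.3 CPM. Of 14 immediate early and heat shock genes 0 were called, with a median of 0.06.

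Of 10 type 1 genes considered, Ccl5 alone was called, and the median of the list was -0.33, against -0.11 over all genes. Ccl5 was called higher, at 483 CPM in the vehicle-labelled (456 to 511) and 1018 CPM in the tamoxifen-labelled members (968 to 1070), a log2 difference of 1.07 (0.97 to 1.19). It came from 56 and 49 cells, and 25.5% and 9.73% of its UMIs from 1 cell. Without the members that held an Ikzf2 UMI, its log2 difference was 0.08. In CD8 T cells Ccl5 stood at 2441 and 3590 CPM, in regulatory T cells at 74.4 and 819 CPM with 52.3% of the latter in 1 cell, and in B cells at 56.9 and 5.14 CPM. Ccl4 was called higher at 73.5 and 195 CPM, with 30.6% and 44.7% of its UMIs in 1 cell. Cxcl10, an interferon-induced chemokine, stood at 20.2 and 53.5 CPM, a log2 difference of 1.37 that was 0.77 as a mean over cells. The histone gene Hist1h2ae stood at 19.4 and 66.0 CPM, with 45.0% of the latter in 1 cell.

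Itgae was called lower, at 69.1 CPM in the vehicle-labelled and 33.0 CPM in the tamoxifen-labelled members, from 56 and 18 cells, and was the 1 residency gene called of 9. Its log2 difference of -1.04 lay close to the fold and was -0.95 on TMM scaling. In CD8 T cells it stood at 310 and 388 CPM. Cxcr6, beside it in the list, stood at 183 and 162 CPM. Serpinb6b stood at 58.5 and 27.1 CPM, a log2 difference of -1.08 that was -0.48 as a mean over cells and -0.11 without the members rich in other-cell genes. Il1r2, a decoy receptor for interleukin-1, stood at 115 and 49.5 CPM, with 30.8% and 33.3% of its UMIs in 1 cell. St8sia6, Gnb4 and Acpp were also among the 10 genes ranked lowest, with Gnb4, a G protein subunit, at 53.7 and 19.2 CPM and a log2 difference of -1.44 that was -0.35 without those members.

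**Figure D4:**
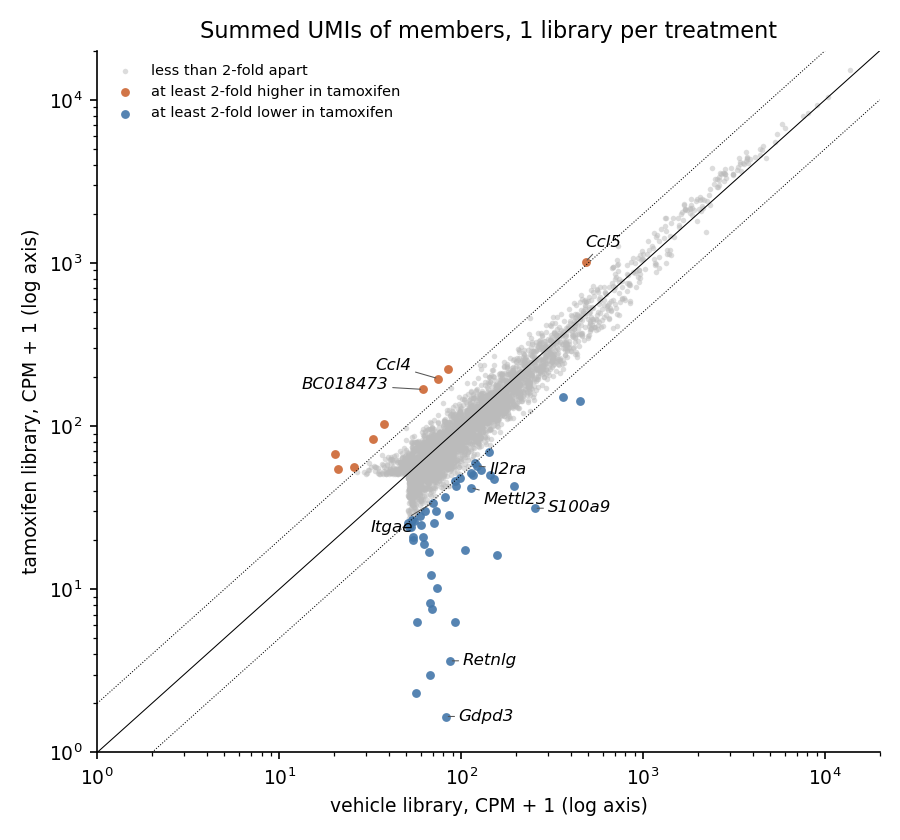
Level of each gene considered (CPM + 1, log axes, with dotted lines at 2-fold) in members of the library labelled vehicle and of the library labelled tamoxifen, with the 9 genes called higher and the 46 called lower coloured. Gdpd3 lies far below the diagonal at 81.8 and 0.66 CPM, and Ccl5 above it at 483 and 1018 CPM.

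Several of the largest differences between the libraries were shared by other cell types. Gdpd3, an enzyme of lysophospholipid metabolism on chromosome 7 (126766334 to 126775649, plus strand, GRCm38), had 207 UMIs in 95 of the vehicle-labelled members and 1 UMI in 1 of the tamoxifen-labelled members. Its level was 81.8 and 0.66 CPM, a log2 difference of -5.64 (-12.3 to -4.46). It stood at 65.7 and 1.91 CPM in CD8 T cells, at 54.5 and 2.57 CPM in B cells, at 114 CPM and 0 UMIs in regulatory T cells, and at 65.3 and 16.1 CPM in all other kept cells. Mettl23, a methyltransferase gene on chromosome 11, stood at 112 and 40.9 CPM in members and at 113 and 45.8 CPM in CD8 T cells. BC018473 lies on the same chromosome (116752167 to 116759373, with Mettl23 at 116843278 to 116854263, both on the plus strand). BC018473 differed in the other direction, at 60.5 and 167 CPM in members, 92.5 and 219 CPM in CD8 T cells and 51.6 and 95.2 CPM in B cells. In regulatory T cells it stood at 32.6 and 31.3 CPM, from 28 and 9 UMIs, a log2 difference of -0.05 (-1.32 to 1.07). Vmn2r96, annotated as a vomeronasal receptor, stood at 60.5 and 19.8 CPM in members and 53.6 and 24.8 CPM in CD8 T cells. In regulatory T cells it stood at 19.8 and 17.4 CPM, from 17 and 5 UMIs, with a wide interval (-0.17, -1.98 to 1.31). These differences between the libraries were thus read outside the members as well.

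Other-cell genes made up part of the calls. Retnlg, a neutrophil gene, stood at 86.1 and 2.64 CPM, and 212 of its 218 vehicle-labelled UMIs came from 1 cell. The neutrophil genes S100a8, S100a9 and Retnlg were called lower (3 of 7 listed), as were the MHC class II genes H2-Aa, H2-Ab1, H2-Eb1 and Cd74 (4 of 10 of the dendritic list). The other genes of both lists did not reach the level considered, and of these 7 Cd74 alone reached 50 CPM in the tamoxifen-labelled members, so that the filter favoured this direction. The genes Chil3 and Ear2 were higher among 5 macrophage genes considered. Of the 9 genes called higher and the 46 called lower, 4 and 33 stood higher in all other kept cells than in the members of both libraries, and 1 member held 25% or more of the UMIs of the higher library for 5 and 18 of them. Without the members that held 3 or more UMIs of the 19 other-cell genes, 19 genes were called higher and 34 lower, and 8 and 12 of these were among the 9 and 46. Without the leading cell of each gene the counts were 7 and 37, with 6 and 29 shared.

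**Figure D5:**
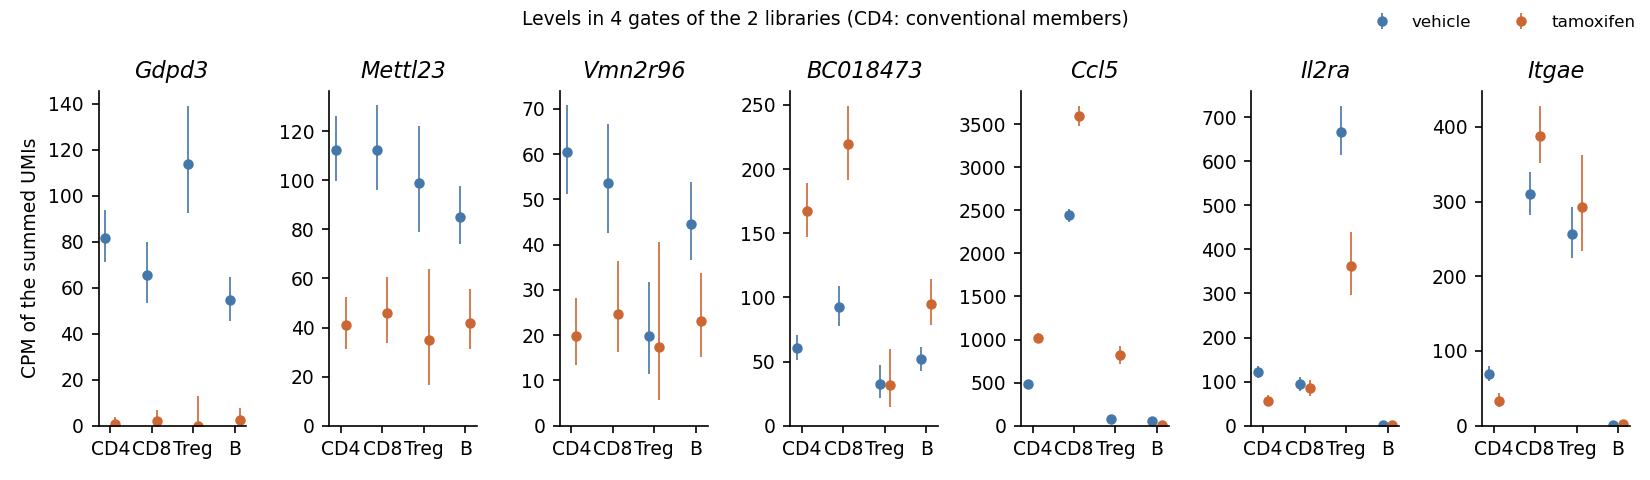
Summed level (CPM) of 7 genes called between the labelled libraries in members, shown for conventional CD4 members, CD8 T cells, regulatory T cells and B cells of the libraries labelled vehicle and tamoxifen, with exact 95% Poisson intervals as bars. Gdpd3 and Mettl23 are lower and BC018473 higher in the tamoxifen-labelled members, CD8 T cells and B cells, while Itgae is at 69.1 and 33.0 CPM in members and at 310 and 388 CPM in CD8 T cells.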

How the data were processed

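Single-cell RNA libraries of the 10x 3′ kind were made from lung tumour suspensions, 2 before and 2 after depletion, and the 2 made before it hold the cells described here. The authors deposited UMI counts per gene and cell, written by Cell Ranger 7.0.1 per the file headers, while the submitters' processing notes name Cell Ranger 7.2.0 and the genome build mm10. Whether intronic reads were counted is not given in the sources used here. Counts of a gate were summed per library and divided by all UMIs of that gate (CPM), with Python 3.11.15, numpy 2.4.6, scipy 1.17.1 and pandas 2.3.3. Doublet scores came from Scrublet in scanpy 1.11.5. With 1 library per group no test or p-value was computed. A gene was considered with at least 50 CPM in either sum compared and called at 2-fold on log2(CPM + 1), in both libraries where both were compared. A gene that reached 50 CPM in 1 of the sums alone could be called in that direction only. Intervals are 95%, exact Poisson for levels, Clopper-Pearson for shares and conditional binomial for ratios. UMIs of 1 library share a suspension, so intervals cover counting error only. For shares, cells were thinned to 2000 UMIs and shallower cells left out. The calling script was tested on simulated data. The members and gene lists were chosen with earlier results of these data known. A few genes of the lists are not reported here and enter no count, and the division by recirculation receptors therefore rests on Ccr7 and S1pr1 alone, a choice made after seeing the data. Named genes are the markers, the list genes and, per comparison and direction, the 10 called genes with the largest difference (by the smaller of both libraries), without ribosomal, mitochondrial, receptor segment, unnamed and gating genes and those higher in all other cells. Gene coordinates come from GENCODE for GRCm38 and promoters from RefSeq for GRCm38.p6.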

Additional observations from a re-analysis of the deposited data

Results flagged for a closer look

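The following 8 genes passed the 2-fold size in opposite directions in the libraries labelled vehicle and tamoxifen, and the difference between the libraries was not tested for any of them.
Against regulatory T cells, Top2a, a gene of dividing cells, had log2 ratios in members of -1.12 in the vehicle-labelled and 1.29 in the tamoxifen-labelled library, and the histone gene Hist1h2ae -1.95 and 3.90, the last from 1 UMI in regulatory T cells. Serpinb6b had ratios of 1.36 and -3.04.
Like Serpinb6b, the MHC class II genes were higher in the vehicle-labelled and lower in the tamoxifen-labelled members, with H2-Ab1 at 1.5 and -1.11, H2-Aa at 1.54 and -2.64 and H2-Eb1 at 1.18 and -2.23. The tamoxifen-labelled regulatory T cells numbered 27, and H2-Aa stood there at 293 CPM from 84 UMIs.
Against CD8 T cells, Cxcl10 had ratios of -1.31 (20.2 against 51.6 CPM) and 1.19 (53.5 against 22.9 CPM).
Between members with and without recirculation receptor UMIs, the macrophage gene Ear2 had ratios of 1.18 (54.7 against 23.6 CPM) and -2.05 (34.4 against 146 CPM, with 51.1% of the latter in 1 cell).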

How the results depend on the processing

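Of 242 recomputed values of the shares, counts and list medians, 183 stayed within the spread or within 1.5 times and 59 moved. Of 850 for single genes and their shares, 723 stayed past the fold or within the interval of the share. A further 38 genes fell short of the fold, 86 shares moved and 3 genes reversed. The CPM minimum was not applied here, so fewer genes could keep a call. Between treatments, without Ikzf2-positive members, 2 of the 4 genes named as higher and 5 of the 10 named as lower were still called. Depth limits the shares: at 1000, 4000 and all UMIs, recirculation receptors were read in 34.1%, 60.3% and 63.5% of vehicle-labelled and 29.4%, 54.1% and 59.9% of tamoxifen-labelled members, Icos in 42.3%, 65.9% and 73.5% and in 37.4%, 66.3% and 72.2%, and Trbc2 in 65.3%, 91.5% and 93.2% and in 69.7%, 97.2% and 95.8%. Members were 2.83% and 1.75% of kept cells with 2 or more Cd4 UMIs required and 3.21% and 2.04% when cells were thinned before the rule.
Between treatments, 25 genes were called higher with 2 or more Cd4 UMIs, 19 without members rich in other-cell genes, and 14 each without Ikzf2-positive members, on TMM and on median-of-ratios scaling. A minimum of 20 CPM gave 34 higher and 139 lower, no minimum 548 and 1341, and a 4-fold size 0 and 14. Leaving out every member with a Lyz2, Sftpc, Cd74 or H2-Aa UMI left 9 and 5 cells and gave 1455 and 1286, a count that says little. The list median of naive and memory regulators was -0.39 with 2 or more Cd4 UMIs, -0.17 on TMM, -0.16 on median-of-ratios scaling and -0.59 in the 9 and 5 cells, where activation was -0.29, inhibitory receptors -0.67 and immediate early genes 0.46. Inhibitory receptors were 0.19 without Ikzf2-positive members. Tissue residency was 0.11 with 2 or more Cd4 UMIs, 0.10 as a mean over cells and 0.17 without members rich in other-cell genes. Retnlg reversed to 0.26 without doublets, and St8sia6 to 1.07 and Acpp to 0.50 in the 9 and 5 cells; the cause was not tested.
Against regulatory T cells, 250 genes were lower at 20 CPM, 617 higher and 706 lower with no minimum, and 154 and 78 without leading cells. Against CD8 T cells the counts were 91 and 101 at 20 CPM and 367 and 257 with no minimum. Within the members, 39 were higher and 126 lower at 20 CPM, 233 higher and 530 lower with no minimum, and 52 higher when divided at 4000 UMIs. The division by Ccr7 and S1pr1 and the settings for leading cells and members rich in other-cell genes were chosen after seeing the data. No paired analysis was possible because each group is 1 library.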
